A study of Mus musculus with 12 samples.

Results

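The immediate early genes Fos, Fosb, Jun, Junb, Jund, Egr1, Atf3, Ier2, Nr4a1 and Dusp1 were followed across microglia and astrocytes sorted from mouse brain. They were taken by gene symbol, and all 10 were found among the 40853 symbols of the deposited count tables and passed the filter on low counts in every comparison. RNA had been sequenced from cells that were isolated from whole brain by heated enzymatic and mechanical dissociation and then by fluorescence-activated sorting. The 4 groups were microglia of wild-type (WT) mice, microglia of Kpna4 knockout (KO) mice, astrocytes of WT mice and astrocytes of KO mice, each with 3 libraries. Kpna4 encodes importin α4, an adaptor that carries proteins into the nucleus. All mice were 8 to 9 weeks old. Dissection followed 20 h after an injection into the peritoneum of 1 mg/kg of the inflammatory stimulus LPS (lipopolysaccharide from bacteria). Both libraries were made from each of 6 animals, 3 WT and 3 KO, so replicate 1 of microglia WT and replicate 1 of astrocytes WT are the same mouse. Mice without LPS and cells without dissociation were not analysed here, so the parts of LPS, dissociation and sorting in a level cannot be told apart. P-values for genotype within a cell type measure the spread between these animals. Those that compare cell types come from a fit of 12 libraries without the animal as a block. They measure the spread between libraries of a group and leave the pairing out. With the animal as a block, all 10 genes were also called between cell types.

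Immediate early genes are transcribed within minutes of a stimulus by factors that are already in the cell, such as serum response factor with its ETS partners and CREB, which MAP kinases and calcium signals switch on. Many of their products are transcription factors that drive a later wave of genes, and their RNAs are short-lived. In the brain they serve as marks of neuronal activity, and in glia they respond to injury, inflammatory signals and handling of the tissue.

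Library totals ran from 10.3 M to 14.5 M counts in microglia and from 10.7 M to 15.6 M in astrocytes. Levels are given as CPM, in which counts are scaled to a common library total; the counts hold amplified copies without molecular identifiers. A set of 8 abundant non-coding transcripts made up 11.8% to 15.4% of each microglia library and 26.2% to 39.5% of each astrocyte library. The level of Kpna4 was 84.4 ± 14.8 CPM in microglia WT and 69.0 ± 9.41 CPM in microglia KO (SD, n = 3 each), and at 49.6 ± 8.81 CPM in astrocytes WT and 64.4 ± 18.6 CPM in astrocytes KO. The labels do not say which part of the gene was removed, so its level does not check the genotype labels, and genotypes are given as labelled. All 10 microglia markers and all 10 astrocyte markers were measured: the microglia list, with P2ry12, Tmem119 and Cx3cr1, summed to 14938 to 19617 CPM in microglia libraries, and the astrocyte list, with Aldh1l1, Aqp4 and Gfap, to 15693 to 20972 CPM in astrocyte libraries. Microglia replicate 1 of WT stood apart from the other 5 microglia libraries, with 20905 genes counted against 16827 to 17650.

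The stretches of promoter that hold the letters of a cAMP response element were examined for the members, which were all lower in astrocytes than in microglia. Whether they are controlled through this element was not tested. CREB and ATF proteins bind this element, whose full form is TGACGTCA and whose core is TGACG. In the RefSeq promoter table (build GRCm38.p6), 8 of the 10 members had an entry; Egr1 and Ier2 did not. The sequences below run 5′ to 3′ on the strand of the gene and lie within the 250 bases before the annotated start. Capitals mark TGACG on either strand, the full TGACGTCA, or, in Jun, the variant TGACATCA. They show 4 members with the core, 1 with the variant and Jund, which had none of them.
Fos, chr12:85473746-85473843, + strand: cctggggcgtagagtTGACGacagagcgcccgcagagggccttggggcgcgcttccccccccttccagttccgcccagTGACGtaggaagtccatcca
Fosb, chr7:19310061-19310120, - strand: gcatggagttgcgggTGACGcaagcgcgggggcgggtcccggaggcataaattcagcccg
Jun, chr4:95052223-95052282, - strand: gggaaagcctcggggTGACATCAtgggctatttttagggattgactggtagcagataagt
Atf3, chr1:191183334-191183393, - strand: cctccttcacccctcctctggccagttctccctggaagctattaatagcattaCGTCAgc
Dusp1, chr17:26508593-26508678, - strand: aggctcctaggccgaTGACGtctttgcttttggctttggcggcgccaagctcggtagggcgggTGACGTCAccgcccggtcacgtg
Jund, chr8:70697679-70697738, + strand: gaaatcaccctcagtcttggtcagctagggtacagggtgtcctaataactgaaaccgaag

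The core TGACG, searched on both strands and counted also inside the full element, was in 6 of the 8 promoters (Fos, Fosb, Junb, Atf3, Nr4a1 and Dusp1) and in 17.9% of all 27025 promoters of that length. The full TGACGTCA was in Dusp1 and in 1.62% of all promoters, and TGACATCA was in Jun and in 3.02%. The GC box letters GGGCGG were in 6 of the 8, against 32.9% of all. The letters TGANTCA, the AP-1 site, were in 0 of the 8 and in 6.87% of all promoters, and the CArG box, the letters that serum response factor reads, was in 0 of the 8 and in 1.4%. These are matches of letters in a short window, and the motifs were chosen after the sequences had been seen.

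The first comparison asked how the members differ between the sorted cell types. Every one of the 10 was lower in astrocytes than in microglia, from 5.46-fold for Jund to 49.8-fold for Atf3. All 10 were called in that direction by edgeR's quasi-likelihood test at an adjusted p under 0.05, against 28.2% of the 17294 genes tested. The median log2 fold change of the members, astrocytes minus microglia, was -4.07, and that of all genes tested was 0.19. In all 10 the 6 astrocyte libraries lay below the 6 microglia libraries, as in 24.9% of all genes tested, and in each of the 6 animals the astrocyte library was the lower of its pair. A called log2 fold change of -2 or below, which all 10 members had, was found in 11.4% of all genes tested. In bulk RNA, fewer cells that transcribe a gene and less RNA per cell cannot be told apart.

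**Figure D1:**
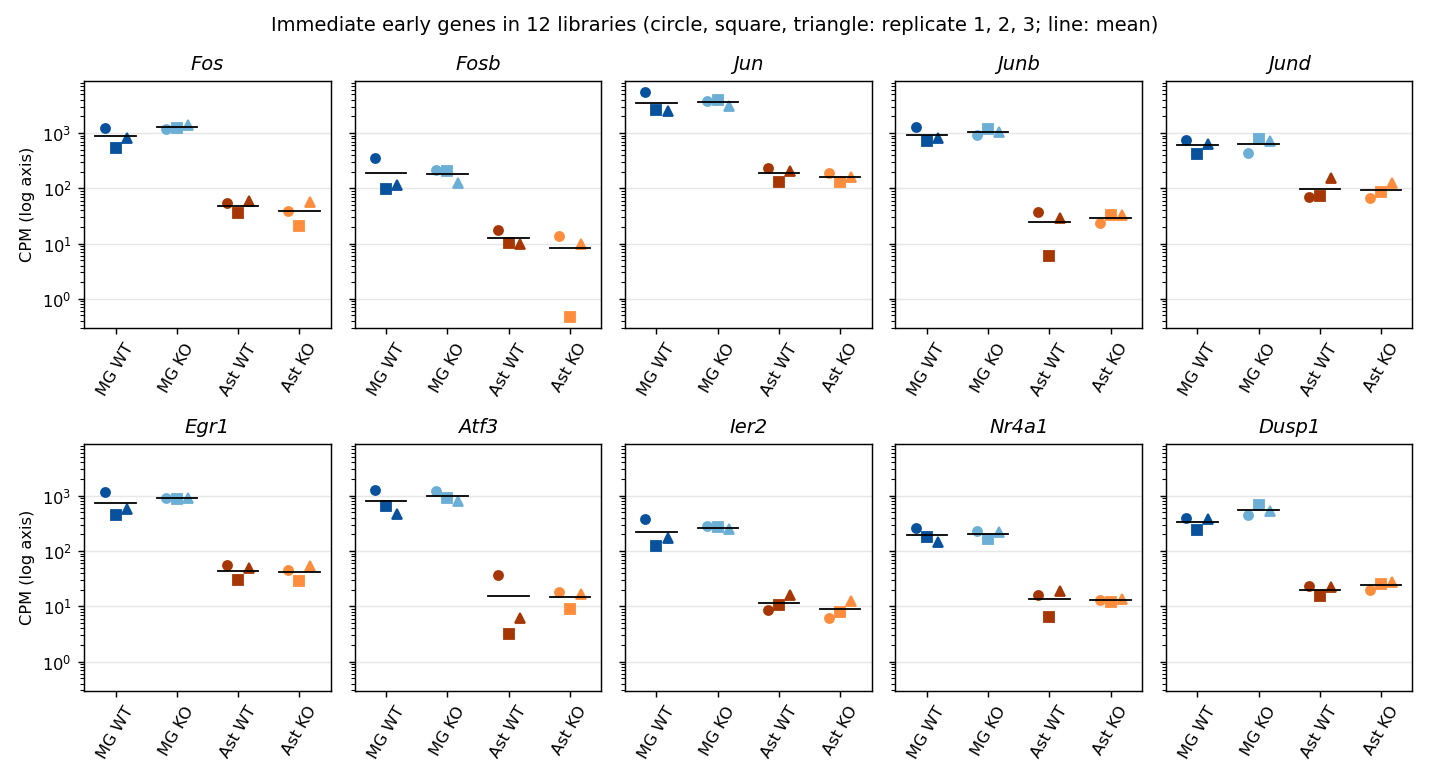
CPM of each immediate early gene on a log axis in the 12 libraries, by group (MG, microglia; Ast, astrocytes), with circles, squares and triangles for replicates 1, 2 and 3 and a line at the mean of each group of 3. In all 10 panels the astrocyte points lie below the microglia points, and the circle of microglia WT is the highest microglia point in 7 panels.

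Fos, the partner of the Jun proteins in the AP-1 transcription factor, was at 1256, 534 and 811 CPM in microglia WT replicates 1, 2 and 3, and at 1166, 1252 and 1413 CPM in microglia KO. In astrocytes it was at 53.1, 35.0 and 58.2 CPM in WT and at 38.8, 21.2 and 57.5 CPM in KO. The cell types did not overlap, and the lowest microglia library was WT replicate 2. The log2 fold change was -4.35 (SE 0.27, edgeR adjusted p = 3.50e-09). Fosb, a close relative of Fos whose splice form ΔFosB is known for its stability, was lower throughout, at 98.2 to 360 CPM in the 6 microglia libraries and at 0.465 to 17.8 CPM in the 6 astrocyte libraries. Its lowest value came from 5 counts in astrocytes KO replicate 2. The other 5 astrocyte libraries held 127 to 248 counts of Fosb, and the log2 fold change was -3.99 (SE 0.52, edgeR adjusted p = 8.99e-06).

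Jun, which pairs with itself or with Fos proteins, had the highest CPM of the members in all 12 libraries. In microglia it was at 5465, 2586 and 2552 CPM in WT and at 3879, 4039 and 3143 CPM in KO. In astrocytes it was at 231, 129 and 203 CPM in WT and at 185, 132 and 161 CPM in KO. Microglia WT replicate 1 was the highest of the 12, and the cell types were far apart, at a log2 difference of -4.13 (SE 0.25, edgeR adjusted p = 3.10e-09). Junb, which often opposes Jun at shared targets, was at 705 to 1261 CPM in microglia and at 5.94 to 37.3 CPM in astrocytes (log2 fold change -4.93, SE 0.38, edgeR adjusted p = 3.29e-08). Its lowest value was in astrocytes WT replicate 2, and the other 5 astrocyte libraries were at 23.7 CPM or above.

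Jund is the Jun protein that many resting cells already make. It had the smallest cell type difference of the members, at a log2 difference of -2.45 (SE 0.26, edgeR adjusted p = 8.74e-07). It was at 741, 426 and 645 CPM in microglia WT and at 438, 767 and 713 CPM in microglia KO. In astrocytes it was at 68.6, 71.8 and 150 CPM in WT and at 68.0, 84.7 and 125 CPM in KO. The highest astrocyte library thus reached 150 CPM and the lowest microglia library 426 CPM, the narrowest gap on this scale relative to the level. Its promoter window held neither the core TGACG nor the variant, while that of Jun, at a log2 difference of -4.13, held the variant without the core. A link between these letters and the cell type difference was not tested.

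Atf3, a stress-induced member of the ATF family that represses many inflammatory genes, had the largest difference of the members. It was at 1259, 657 and 474 CPM in microglia WT and at 1229, 902 and 797 CPM in microglia KO. In astrocytes it was at 36.5, 3.09 and 6.15 CPM in WT and at 18, 8.93 and 16.4 CPM in KO. Within astrocytes WT, replicate 1 stood well above the other two, so the mean of 15.2 ± 18.5 CPM (SD, n = 3) has a spread larger than itself. The log2 fold change was -5.64 (SE 0.54, edgeR adjusted p = 3.56e-07).

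Egr1, a zinc finger transcription factor and a common mark of stimulated cells, was at 1187, 448 and 579 CPM in microglia WT and at 909, 875 and 921 CPM in microglia KO. It was at 54.8, 29.5 and 48.6 CPM in astrocytes WT and at 44.4, 28.9 and 54.3 CPM in astrocytes KO. The 3 KO microglia libraries were close together and lay between the WT libraries, and the log2 fold change between cell types was -3.99 (SE 0.27, edgeR adjusted p = 9.19e-09). Nr4a1, an orphan nuclear receptor that limits inflammatory gene expression in myeloid cells, was at 146 to 259 CPM in microglia and at 6.26 to 18.9 CPM in astrocytes (log2 fold change -3.65, SE 0.26, edgeR adjusted p = 1.40e-08). Ier2, a small nuclear protein named for its immediate early response, was at 121 to 372 CPM in microglia and at 6.04 to 15.9 CPM in astrocytes (log2 fold change -4.33, SE 0.31, edgeR adjusted p = 1.78e-08).

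Dusp1 encodes the phosphatase MKP-1, which switches off p38 and JNK, and is also induced by glucocorticoids. It was at 394, 238 and 380 CPM in microglia WT and at 457, 690 and 523 CPM in microglia KO. In astrocytes it was at 22.9, 15.2 and 22.2 CPM in WT and at 19.7, 25.3 and 27.7 CPM in KO. All 3 KO microglia libraries lay above all 3 WT microglia libraries, and the log2 fold change between cell types was -4.01 (SE 0.22, edgeR adjusted p = 1.08e-09).

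**Figure D2:**
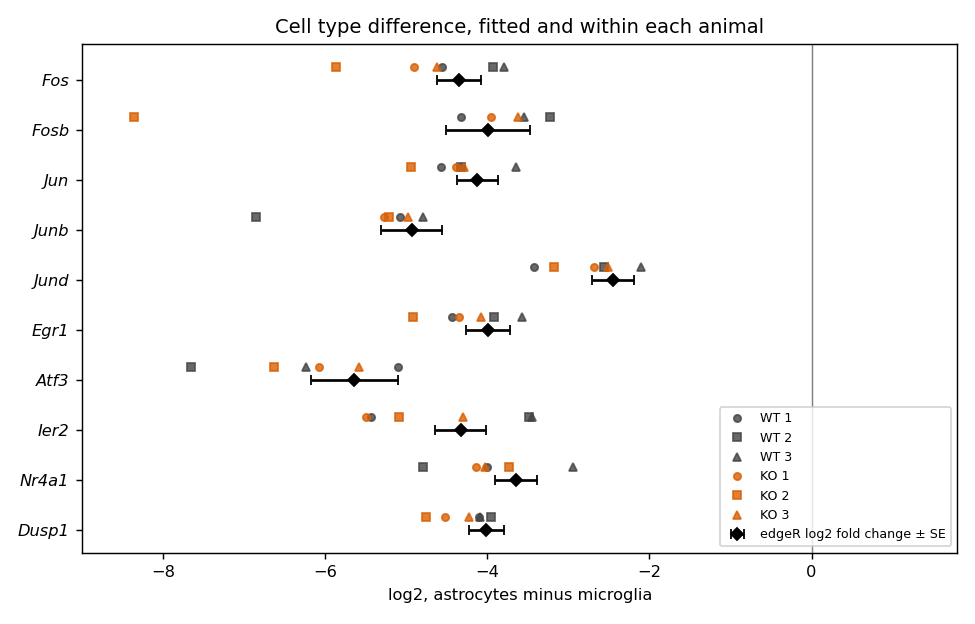
Log2 difference between the astrocyte and the microglia library, for each immediate early gene. Small symbols are single animals on the CPM scale, and diamonds with bars are the log2 fold change ± SE of the edgeR fit, which is on the TMM scale. All values are below 0, and Jund lies nearest to 0.

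Divided by transcript length, so that genes could be ordered, Jun led in microglia with 1108 ± 524 CPM per kb in WT and 1156 ± 150 in KO (SD, n = 3 each). Junb, Atf3, Fos and Jund followed at 362 to 404 CPM per kb in microglia WT, within the spread of each other. In astrocytes WT, Jun at 58.8 ± 16.4 and Jund at 58.1 ± 27.8 CPM per kb did not differ beyond their spread, and Fos came next at 20.7 ± 5.18. Nr4a1 and Fosb were the lowest in all 4 groups, with 3.9 and 2.02 CPM per kb in astrocytes WT.

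Microglial RNA in the astrocyte libraries was measured beside the members. All 10 microglia markers were above 3 counts in at least 1 library of each astrocyte group, and their sum was 216 to 621 CPM. Per animal this was 1.44% to 4.05% of the sum in the microglia library, with a median of 2.30%. The summed CPM of the 10 members in astrocytes was 3.41% to 8.40% of their sum in microglia, with a median of 4.86%, and was above the marker percentage in 6 of 6 animals. Member by member, Jun, Jund, Egr1, Nr4a1 and Dusp1 were above it in 6 animals, Fos and Fosb in 5, Ier2 in 4, Junb in 3 and Atf3 in 1. Jund had the highest median, 16.2%, and Atf3 the lowest, 1.38%. The part of microglial RNA in the astrocyte levels was not tested. Other cell types also differed between the sorts: summed neuronal markers were 11.1 to 23.2 CPM in microglia and 76.9 to 147 CPM in astrocytes, and oligodendrocyte markers were 252 to 1688 CPM and 772 to 3807 CPM.

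Related genes were read from the same fit in 8 lists, beside 28.2% of all genes called lower in astrocytes and 36.4% called higher. Of 11 tested relatives of AP-1 and ATF, 9 were lower in astrocytes and 0 higher, with a list median log2 fold change of -2.73. Fosl2, another Fos protein, was lower by a log2 of -2.73 (SE 0.21), and the small Maf protein Mafk by -3.56 (SE 0.38), while Atf4, the factor of the integrated stress response, differed by -1.95. Of 10 tested EGR, NR4A and KLF genes, 7 were lower and 0 higher. The Krüppel-like factors Klf6 (355 ± 84.4 CPM in microglia WT, 30.6 ± 14.0 in astrocytes WT), Klf4 and Klf2 differed by -3.51, -3.33 and -3.85, and Egr2 by -4.19. Nr4a2 and Nr4a3, relatives of Nr4a1, were not called, at 0.63 and 0.38.

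Of 24 other immediate early response genes, 18 were lower in astrocytes, 3 were higher and 3 were not called. Mcl1, a survival protein with a very short-lived RNA, differed by a log2 of -3.35 (SE 0.15), the antiproliferative genes Btg1 and Btg2 by -3.16 and -4.07, and Ier5 by -4.11. The 3 that were higher in astrocytes were Ccn1 and Ccn2, matricellular targets of YAP and serum response factor, and Id1, a target of BMP signalling, at 3.08, 3.52 and 2.74, named after their values had been seen. Of 6 genes that promote RNA decay, 5 were lower: Zfp36, which encodes tristetraprolin and destabilizes cytokine and early gene RNAs, was at 1302 ± 222 CPM in microglia WT and 37.4 ± 20.6 in astrocytes WT (log2 fold change -5.32, SE 0.32), and Zfp36l1 and Zfp36l2 differed by -1.75 and -1.53. Tob1 was the gene of this list that was higher in astrocytes, at 2.76.

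Of 14 genes that restrain MAP kinases, 4 were higher in astrocytes, 5 were lower and 5 were not called, with a median of -0.09; these shares are near the 36.4% higher and 28.2% lower of all genes tested. Dusp6 and Dusp7, phosphatases specific for ERK, were lower in astrocytes by a log2 of -2.95 and -3.11, as Dusp1 was. Spry2, an inhibitor of growth factor signalling, was higher (68.1 ± 12.7 CPM in astrocytes WT, 2.48 ± 0.951 in microglia WT; log2 fold change 4.88, SE 0.37), and so was Dusp14, at 5.88. Of 20 upstream kinases and factors, 11 were lower in astrocytes and 4 higher. Mapkapk2, a p38 target that stabilizes early RNAs, differed by -2.44, the ETS factor Elk3 by -4.04 and Creb1 by -1.29, while the serum response factor coactivator Mrtfb was higher by 1.44.

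Of 20 genes often seen beside immediate early genes in dissociated tissue, 16 were lower in astrocytes and 0 higher, with a median of -4.76. The 4 that were not called were the chaperone genes Hsph1 (0.34), Hsp90aa1 (0.31), Dnaja1 (-0.016) and Hspe1 (-0.17). Other chaperone genes were called lower: Hspa1a (-5.57), Hspa1b (-5.22), Hspa8 (-2.32), Dnajb1 (-2.24) and Hsp90ab1 (-0.95). The chaperone genes are named here after their values had been seen. Socs3, the feedback inhibitor of STAT3, differed by a log2 of -5.35, Nfkbiz by -3.97, and the cytokine genes Il1b and Ccl4, which microglia make, by -5.09 and -5.24. Genes known from neuronal activity went the other way: 4 of 7 were higher in astrocytes, 0 lower and 3 not called. Npas4, a factor of active neurons, was at 6.08 ± 2.25 CPM in astrocytes WT and 1.09 ± 0.947 CPM in microglia WT (log2 fold change 3.39, SE 0.93), and Nrn1, Nptx2 and Bdnf differed by 2.90, 3.30 and 3.49 from group means below 5 CPM. These genes moved with the neuronal marker sum above, and its part in their difference was not tested.

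**Figure D3:**
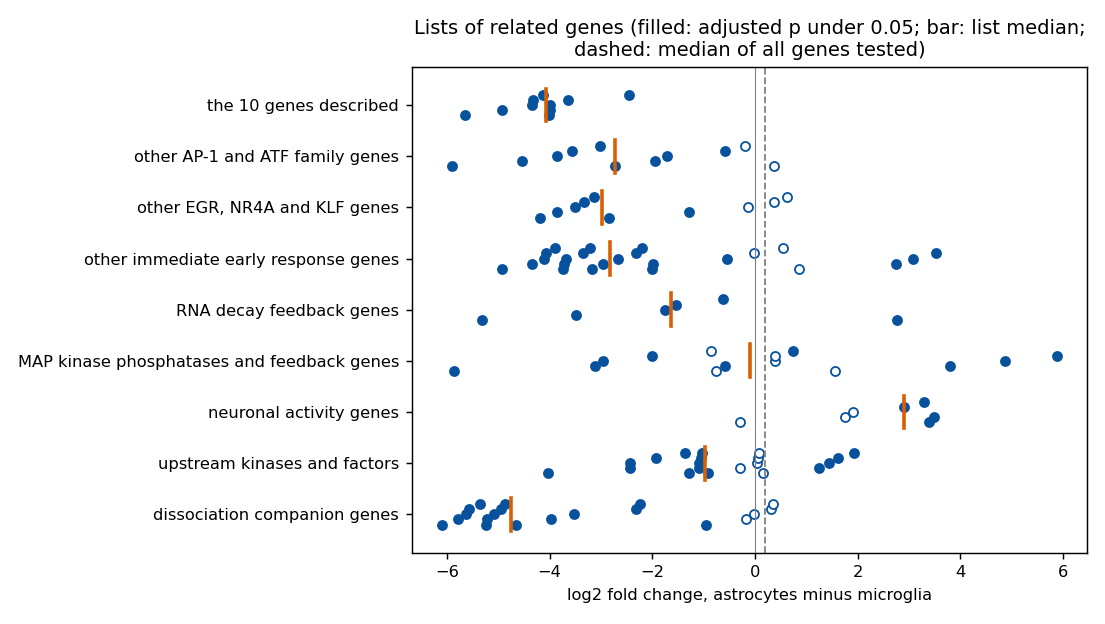
Log2 fold change, astrocytes minus microglia, of each tested gene in the 10 immediate early genes and 8 lists of related genes, with filled points for an edgeR adjusted p under 0.05, a bar at each list's median and a dashed line at the median of all genes, 0.19. The medians run from -4.76 for the dissociation companions to 2.90 for the neuronal activity genes.

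The second comparison asked whether the members differ between KO and WT microglia. None of them passed the test, and edgeR called 0 of 14191 genes (0%), with 1053 genes (7.42%) at an unadjusted p under 0.05. DESeq2 called 41 genes and limma voom 0, with 0 members by either. Dusp1 had the smallest p of the members. Its mean was 337 ± 86.6 CPM over the WT libraries and 557 ± 120 CPM over the KO libraries (SD, n = 3 each). The log2 fold change was 0.70 (SE 0.23), with an unadjusted p of 0.00996 and an adjusted p of 0.587 in edgeR. It was the 1 member of 10 at an unadjusted p under 0.05, and the 1 member whose genotypes did not overlap, as in 13.1% of all genes tested. Fos averaged 867 ± 364 CPM in WT against 1277 ± 126 CPM in KO (log2 fold change 0.53, SE 0.27, edgeR adjusted p = 0.709). The other 8 had log2 fold changes from -0.10 for Fosb to 0.26 for Atf3, and the median over the members was 0.19 beside -0.0013 over all genes.

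The size and sign of these differences varied with which WT library was left out. WT replicate 1 was the highest of the 6 microglia libraries in 7 of the 10 members, and WT replicate 2 or 3 was the lowest in all 10. The summed CPM of the members was 12555, 5991 and 6701 in WT replicates 1, 2 and 3, and 9731, 10367 and 9136 in KO. In 8 of the 10 members all 3 KO libraries lay above WT replicates 2 and 3, the exceptions being Jund and Nr4a1. Dusp1 was the 1 member in which all 3 KO libraries also lay above WT replicate 1. WT replicates 2 and 3 were set apart after their values had been seen. The share of all genes with that order was not counted, so the 8 of 10 has no background beside it. Without WT replicate 1, all 10 members had a positive log2 fold change with a median of 0.76, and 8 were at an unadjusted edgeR p under 0.05 beside 4.61% of all genes in either direction and 1.28% on the higher side, but 0 genes were called. Fos was then at 0.91, Dusp1 at 0.84, Ier2 at 0.83 and Egr1 at 0.80, with an edgeR adjusted p of 0.789 or more. WT replicate 1 was the highest library in 7 members, so leaving it out raises KO against WT in those members. The shares over all genes are therefore not a matched background. Without WT replicate 2 instead, 3 of the 10 were positive, the median was -0.015 and 0 were at an unadjusted edgeR p under 0.05. Without WT replicate 3, 6 were positive, the median was 0.062 and 1 was at that p. Fos and Dusp1 kept a positive sign under all 13 alternatives. WT replicate 1 was also the highest in the heat shock gene Hspa1a, chosen here after its values had been seen, at 10984 CPM against 1003 to 3063 CPM in the other 5 microglia libraries. The part of that library's state in the members' values was not tested.

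**Figure D4:**
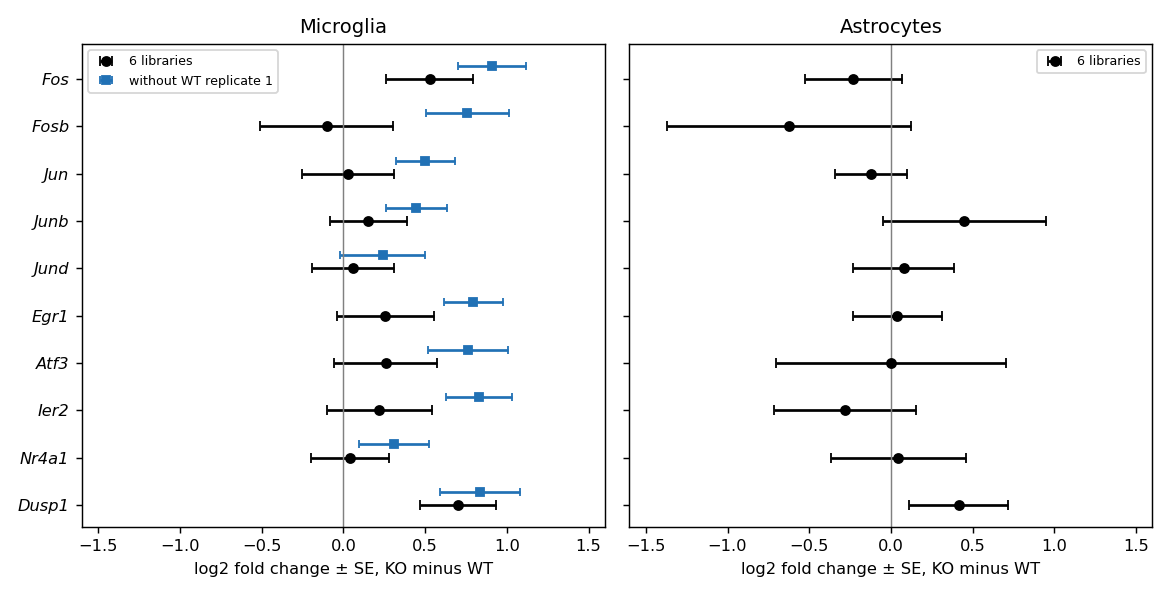
Log2 fold change ± SE, KO minus WT, of each immediate early gene in microglia (left) and astrocytes (right) from edgeR, with blue squares for the microglia fit without WT replicate 1. With 6 libraries the microglia values run from -0.10 to 0.70, and without WT replicate 1 all 10 lie above 0. Without WT replicate 2, which is not drawn, 3 of the 10 were positive.

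The spread among WT microglia was wider than among KO microglia in 9 of the 10 members, all but Jund, on the log2 scale. Over all genes tested in microglia, 55.8% had the larger SD in WT. Egr1 gave 738 ± 394 CPM in WT and 902 ± 23.8 CPM in KO, and Ier2 223 ± 132 and 265 ± 15.5 CPM (SD, n = 3 each). The mean log2 CPM of the 10 members was 9.02 ± 0.58 in WT and 9.35 ± 0.07 in KO. WT replicate 1 carried much of this spread: without it the SD of that mean over the remaining 2 WT libraries was 0.17, and 5 of the 10 members had the larger SD in WT. The difference in spread was not tested.

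In astrocytes, too, none of the members passed the test between KO and WT, and edgeR called 0 of 15755 genes (0%), with 373 genes (2.37%) at an unadjusted p under 0.05. DESeq2 called 4 genes and limma voom 0. No member was among those 373. The log2 fold changes ran from -0.62 (SE 0.75) for Fosb to 0.45 (SE 0.50) for Junb, 6 were positive, and the median was 0.02. Junb averaged 24.2 ± 16.3 CPM in WT against 29.6 ± 5.07 CPM in KO, and Jun 188 ± 52.4 against 159 ± 26.9 CPM (SD, n = 3 each). Dusp1 averaged 20.1 ± 4.24 against 24.3 ± 4.11 CPM (log2 fold change 0.41, SE 0.30, edgeR adjusted p = 0.999). Without WT replicate 2, which had the lowest mean log2 CPM of the members among the 6 astrocyte libraries, the median became -0.29 with 2 positive.

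The genotype difference in astrocytes minus that in microglia was tested as an interaction over all 12 libraries. EdgeR called 0 of 17294 genes (0%), with 1102 (6.37%) at an unadjusted p under 0.05 and 0 members among them. DESeq2 called 62 genes and limma voom 0, with 0 members by either. The members' values ran from -0.64 (SE 0.47, edgeR adjusted p = 0.910) for Fos to 0.41 for Junb, with a median of -0.11. The median over all genes was 0.16 in this fit and 0.0028 when the 8 abundant non-coding transcripts were left out. With those left out, the median over the members was -0.29 and Jund and Nr4a1 changed sign.

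In the lists of related genes, edgeR called 0 genes between genotypes in either cell type. In microglia 12 genes of the lists were at an unadjusted edgeR p under 0.05, 9 of them on the lower side in KO, and none passed the adjustment. The 8 lists had 11, 10, 23, 6, 12, 3, 20 and 20 genes tested there, and 7.42% of all genes were at that p. Of all genes at that p, 68.3% were on the lower side. Without WT replicate 1, 4 of the 12 were still at an unadjusted p under 0.05, 2 of them on the lower side. Among the 12 were the small Maf gene Maff at a log2 fold change of -1.74, Egr3 at -1.24, the kinase gene Plk2 at -1.13 and Srf, which encodes serum response factor, at -0.77. Srf averaged 50.2 ± 15.4 CPM in WT against 30.1 ± 7.63 CPM in KO (SD, n = 3 each). Zfp36 had the opposite sign, averaging 1302 ± 222 CPM in WT against 1982 ± 334 CPM in KO (log2 fold change 0.58). Of the dissociation companions, 5 of 20 were at an unadjusted p under 0.05 on the lower side (5.07% of all genes tested) and 2 on the higher side (2.35%), led by the chaperone genes Hsph1 (-1.22) and Dnajb1 (-1.41). WT replicate 1 was the highest microglia library in Maff, at 69.1 CPM against 7.3 to 14.0 CPM in the other 5, and in Egr3, at 54.7 against 8.43 to 16.1 CPM. Without that library the log2 fold change was -0.22 for Maff, -0.03 for Egr3, -0.68 for Plk2, -0.48 for Srf, -0.89 for Hsph1 and -0.76 for Dnajb1, while Zfp36 was at 0.55. In astrocytes 3 genes of the lists were at an unadjusted edgeR p under 0.05, as were 2.37% of all genes tested. They were 2 of 20 dissociation companions and 1 of 7 neuronal activity genes, each at an edgeR adjusted p of 0.999. The chaperone genes Hsp90aa1 (-0.65) and Hspa1a (-1.14) were on the lower side. Nptx2 averaged 0.255 ± 0.241 CPM in WT against 3.06 ± 1.41 CPM in KO. Without astrocytes WT replicate 1, 1 of these 3 was still at an unadjusted p under 0.05. For the interaction, the genotype difference in astrocytes minus that in microglia, Hsph1 was at 1.12 and Homer1 at 0.87. Batf2 was also at an unadjusted p under 0.05 there, with 0 counts in all 3 KO astrocyte libraries and 1.23 CPM at most in the WT ones.

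The members were then followed across libraries and animals. In microglia all 45 pairs of members had a positive Pearson correlation of log2 CPM over the 6 libraries, with a median of 0.69, and in astrocytes 39 of 45 did, with a median of 0.48 and a range from -0.43 to 0.90. Egr1 followed the mean of the other 9 most closely in astrocytes (0.99) and at 0.98 in microglia, where Ier2 was at 0.99. Jund followed it at 0.50 in microglia and 0.27 in astrocytes, and Ier2 at 0.15 in astrocytes. These correlations are descriptions over 6 points that share a library, its depth and its composition. The share of positive pairs among other genes was not counted, so the counts of positive pairs have no background beside them. Microglia WT replicate 1 was the highest microglia library in 7 of the members. Its part in the microglia correlations was not tested.

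Within groups most members had a larger spread than the median gene of their level. By definition as many genes lie above such a median as below it. Their pooled SD on the log2 scale was 0.34 to 0.79 in microglia, and for all 10 it was above the median SD of genes within 0.5 log2 of the same level, which was 0.22 to 0.29. For Jun only 13 genes were at that level. Against the median over all genes tested in microglia, 0.40, Junb (0.34), Nr4a1 (0.35) and Dusp1 (0.36) were below. The members share the same libraries, WT replicate 1 among them, so they are not separate observations. In astrocytes 8 of 10 were above it, the exceptions being Ier2 and Dusp1, and Fosb (1.78) and Atf3 (1.33) had the widest spread.

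Per animal, the mean log2 CPM of the members in microglia and astrocytes was 9.67 and 5.17 in WT 1, 8.57 and 4.10 in WT 2, and 8.81 and 5.0 in WT 3. It was 9.34 and 4.76 in KO 1, 9.42 and 4.15 in KO 2, and 9.28 and 5.06 in KO 3. WT 1 was thus the highest and WT 2 the lowest in both cell types, while KO 2 ranked 2 of 6 in microglia and 5 of 6 in astrocytes. The microglia marker sum in the astrocyte libraries was also highest in WT 1, at 621 CPM, and lowest in WT 2, at 216 CPM. It was 426 CPM in WT 3, 392 in KO 1, 361 in KO 2 and 391 in KO 3. Its part in the order of the animals in astrocytes was not tested. The microglia to astrocyte ratio, from the means of log2 values, was between 14.1-fold in WT 3 and 38.6-fold in KO 2. The KO 2 value includes Fosb, with 5 counts in astrocytes, at a log2 difference of -8.36 against -4.32 to -3.23 in the other animals. Over the 6 animals Pearson's r between the cell types was 0.42 and Spearman's rho 0.49, and r was 0.26 over the 4 animals left without WT 2 and WT 3, which were farthest from the median in microglia. Astrocytes KO 2 also had the largest share of abundant non-coding transcripts, 39.5%, which is part of the total that CPM are scaled to.

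**Figure D5:**
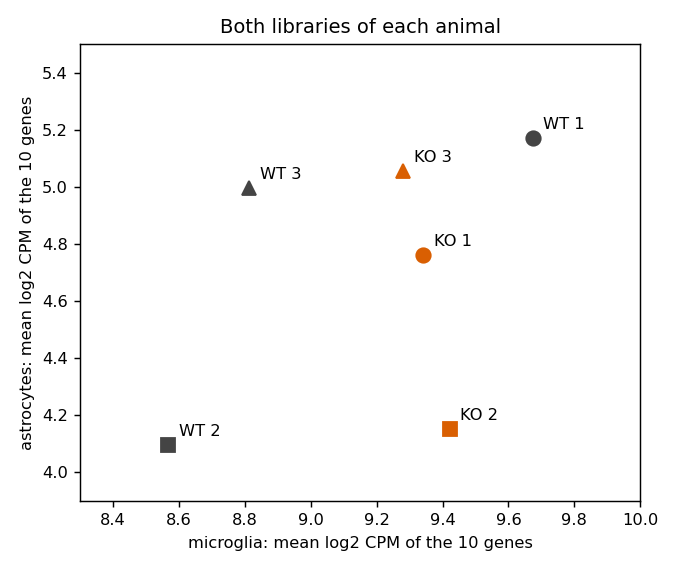
Mean log2 CPM of the 10 immediate early genes in the microglia library (x axis) and the astrocyte library (y axis) of each of the 6 animals, grey for WT and orange for KO. WT 1 is highest and WT 2 lowest on both axes, and KO 2 lies high in microglia and low in astrocytes.

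The genes most like the members were those with a mean of at least 10 CPM in both cell types and the highest value of the smaller of their Pearson correlations with the members' mean log2 CPM, over 6 microglia and over 6 astrocyte libraries. They were Trib1 (0.89 in microglia, 0.91 in astrocytes), Cited2 (0.89, 0.95), Psmd13 (0.89, 0.89), Bach1 (0.88, 0.90) and Nrros (0.87, 0.98). Trib1 encodes a pseudokinase, Cited2 a transcriptional coregulator, Psmd13 a proteasome subunit, Bach1 a repressor of heme-responsive genes and Nrros a microglial protein that binds latent TGF-β. Trib1 was at 116 ± 61.2 CPM in microglia WT and 26.9 ± 7.49 CPM in astrocytes WT (SD, n = 3 each), with a log2 difference of -2.01 (SE 0.28, edgeR adjusted p = 1.52e-05). Bach1 and Nrros were also called lower in astrocytes by edgeR, at -3.42 and -3.75, as were Cited2 at -2.13 and Psmd13 at -0.67. The named genes were picked as the highest of all genes at that level, so their correlations have no background beside them. In astrocytes the microglia marker sum was highest in WT 1, at 621 CPM, and lowest in WT 2, at 216 CPM. The members' mean log2 CPM was also highest and lowest in these libraries. The part of microglial RNA in this likeness was not tested.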

How the data were processed

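The authors deposited estimated counts per gene symbol, 1 table per cell type; the submitters' processing notes name STAR 2.7.10b, RSEM 1.3.3, limma and build GRCm39. Values were rounded to whole numbers, and CPM were computed from the library total. EdgeR 4.0.16 (R 4.3.3) ran its quasi-likelihood test with TMM factors, filterByExpr (minimum count 10) and Benjamini-Hochberg adjustment over all genes: 6 libraries per cell type for genotype, and 1 fit of 12 libraries in 4 groups for cell type and interaction. SE is the log2 fold change divided by the square root of F. Log2 CPM used a prior count of 2. Lengths are merged exons of GENCODE on GRCm38, and promoters are RefSeq on GRCm38.p6, matched by symbol.

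The members and lists were chosen with earlier results of these data known. Besides the members, up to 4 called genes per list, by smallest adjusted p, are named, or, with no call, up to 2 with the smallest unadjusted p under 0.05, the 5 genes most like the members, and markers where a library stands apart.

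Replicate libraries differed far beyond counting noise (chi-square divided by its degrees of freedom, 32.0 to 127). The labels' animal numbers pair microglia with astrocytes, and their deviations from group means correlated across genes at 0.01 to 0.10 in WT and 0.0041 to 0.064 in KO. Alternatives were DESeq2 1.42.0, its size factors, other filters, limma 3.58.1 voom, 8 abundant transcripts left out, replicates left out and blocks. The tests were tried on simulated counts.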

Additional observations from a re-analysis of the deposited data

How the results depend on the processing

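The cell type difference held for all 10 members under all 14 alternatives, with 10400 genes called with the animal as a replicate block; no member's call changed. For genotype, 0 members were called under any of 13 alternatives, while counts over all genes moved. In microglia DESeq2 called 41, no filter of low counts 121, the replicate block 30 (all lower in KO), and leaving out 1 library 0 to 2 (2 without KO replicate 2). In astrocytes these were 4, 17, 0 and 0 to 1 (1 without WT replicate 1), and for the interaction 62, 160, 0 and 0 to 6 (1 without WT replicate 2, 6 without KO replicate 3). The causes were not tested. The labels give replicate numbers but no pairing of WT with KO animals. Deviations from group means of same-numbered WT and KO libraries correlated at 0.14, 0.06 and 0.25 in microglia and at -0.02, 0.05 and 0.27 in astrocytes. Those of differently numbered libraries correlated at -0.19 to 0.06 in microglia and at -0.19 to 0.12 in astrocytes. These values do not decide whether same-numbered animals were handled together. Uncalled members changed sign in 20 of 130 values in microglia, 15 of 130 in astrocytes and 21 of 130 for the interaction. In microglia these were Fosb (0.23 with voom, 0.12 with the replicate block) and, with a minimum count of 50, Jun (-0.015) and Nr4a1 (-0.00074). Without 1 library each, the range was -0.42 to 0.76 for Fosb, -0.17 to 0.50 for Jun, -0.0092 to 0.45 for Junb, -0.14 to 0.28 for Jund, -0.0019 to 0.80 for Egr1, -0.013 to 0.76 for Atf3, -0.073 to 0.83 for Ier2 and -0.14 to 0.31 for Nr4a1. In astrocytes voom gave -0.0051 for Jund and -0.048 for Nr4a1, and no filter -0.0041 for Atf3. Leaving out 1 library gave -0.30 to 0.070 for Jun, -0.12 to 0.47 for Jund, -0.16 to 0.24 for Egr1, -0.47 to 1.75 for Atf3 and -0.28 to 0.29 for Nr4a1. For the interaction, Jund was at -0.050 with no filter, -0.049 with 8 abundant transcripts left out and -0.066 with voom, Nr4a1 at -0.076 with no filter and -0.073 with 8 left out, and Atf3 at 0.44 with voom and 0.43 with the replicate block. Leaving out 1 library gave -0.98 to 0.083 for Fosb, -0.39 to 0.18 for Jun, -0.092 to 0.62 for Junb, -0.30 to 0.49 for Jund, -0.51 to 0.093 for Egr1, -0.67 to 1.02 for Atf3, -1.24 to 0.018 for Ier2 and -0.36 to 0.53 for Nr4a1. The group differences in the member mean moved by less than the spread between replicates when single members were left out or the scaling changed. The genotype differences in the member mean also did so when single libraries were left out. In microglia this is a loose limit, because the spread includes WT replicate 1 (SD 0.58 in WT, 0.07 in KO). Leaving out libraries for the member mean, for genes of the related lists and for the spread was chosen after seeing the data. Counting depth was high for the members in microglia. It was lower in astrocytes, down to 5 counts of Fosb in KO replicate 2 and 38 of Atf3 in WT replicate 2. The 3 animals per group limit the genotype comparisons.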
